A study of Mus musculus with 6 samples.

Results

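The 9 genes described here encode proteins of the noncompact parts of the myelin sheath and of the junctions that hold it together: Mag, Gjb1, Gjc3, Cldn19, Cnp, Ncmap, Pllp, Mpp6 and Cd9. They were taken by name from a fixed list, drawn up when earlier results of these data were known, and were found among the 24421 genes counted in each library; all 9 passed the filter on low counts that left 14789 genes for testing. RNA from the sciatic nerve of mice, which supplies the hind limb, was sequenced in 3 libraries whose genotype label is YAP/TAZ-DBL-cKO (called cKO here) and 3 libraries labelled wild-type (WT), and the design text counts 3 mice in each group. YAP and TAZ, encoded by Yap1 and Wwtr1, are co-activators of the Hippo pathway that work through TEAD transcription factors. The labels name no further allele or agent in either group, and the sources used here do not give the age of the mice, what drives the deletion, which part of each gene was deleted or whether nerves were pooled.

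Myelin is the Schwann cell membrane wrapped many times around an axon. Most of it is compact, with the cytoplasm squeezed out, but cytoplasm remains in the paranodal loops beside each node of Ranvier, in the Schmidt-Lanterman incisures that cross the sheath, and in the inner and outer mesaxon. These noncompact channels carry their own set of proteins: an adhesion molecule that faces the axon (Mag), connexins that form or resemble gap junctions between layers of 1 cell (Gjb1 and Gjc3), a claudin that seals the layers (Cldn19), a scaffold under the incisure membrane (Mpp6), a cytoplasmic enzyme (Cnp) and small membrane proteins (Ncmap, Pllp and Cd9). Pllp and Cd9 are not restricted to noncompact membrane, and Cd9 and Mpp6 are made by many cell types of a nerve.

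The total of gene counts was 24651262 to 32003497 in the cKO libraries and 41270894 to 47044158 in the WT libraries. Every WT library was the deeper. A count of 0 allows a level of up to 0.0649 to 0.117 CPM (3 counts; CPM is the count scaled to library size, with TMM factors that correct for composition). The targeted genes did not check the labels. Yap1 stood at 120.4, 123.7 and 121.7 CPM in WT 1, WT 2 and WT 3 and 108.1, 108.8 and 102.6 CPM in cKO 1, cKO 2 and cKO 3 (log2 fold change -0.20 ± 0.08, SE; edgeR adjusted p = 0.145). Wwtr1 was higher in the libraries labelled cKO (0.40 ± 0.09; edgeR adjusted p = 0.0208), a call lost without cKO 3, WT 1 or WT 2 (edgeR adjusted p = 0.0518 to 0.117). Every direction below therefore rests on the labels. Each library held reads of both Xist (133.9 to 258.0 CPM), a transcript of female cells, and the Y-linked Ddx3y (8.93 to 47.96 CPM). With reads of both in every library and pooling not given, a library cannot be taken as 1 mouse. The p-values measure the spread between these libraries, and whether that is a spread between single mice is not known. The tissue label matched the counts, with Mbp, a major myelin protein, at 3536 to 23080.0 CPM. Mog, Opalin, Hapln2, Olig1 and Olig2, which mark the myelinating cell of the central nervous system, stayed at or below 0.202 CPM in every library. Mobp, the other gene of that list, stood at 1.30, 1.55 and 3.10 CPM in WT 1, WT 2 and WT 3 and at 0, 0.0389 and 0 CPM in cKO 1, cKO 2 and cKO 3, and was called lower (edgeR adjusted p = 0.00139).

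Of the 9 genes, 8 were lower and 0 higher in the cKO libraries (edgeR quasi-likelihood test, Benjamini-Hochberg adjusted p under 0.05 over all genes), against 6.17% of all tested genes lower and 4.77% higher. All of the 8 lower genes had every cKO library below every WT library, which held for 15.8% of all tested genes. Their median log2 fold change with Mpp6 included was -0.97, against 0.02 over all genes. By more than 1 log2 unit, 4 were lower (Mag, Gjb1, Ncmap and Cd9), against 1.76% of all genes. The falls ran from 1.64-fold for Gjc3 to 4.53-fold for Gjb1, and Mpp6 was the member that did not pass. In RNA of a whole nerve, fewer cells of a type and less RNA per cell cannot be told apart. With total counts in place of TMM factors, the median of all genes shifted by 0.12 and lower genes made up 32.3% of all calls instead of 56.4% (with factors from Schwann cell lineage genes 45.5%), while the same 8 members stayed lower with total counts.

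**Figure D1:**
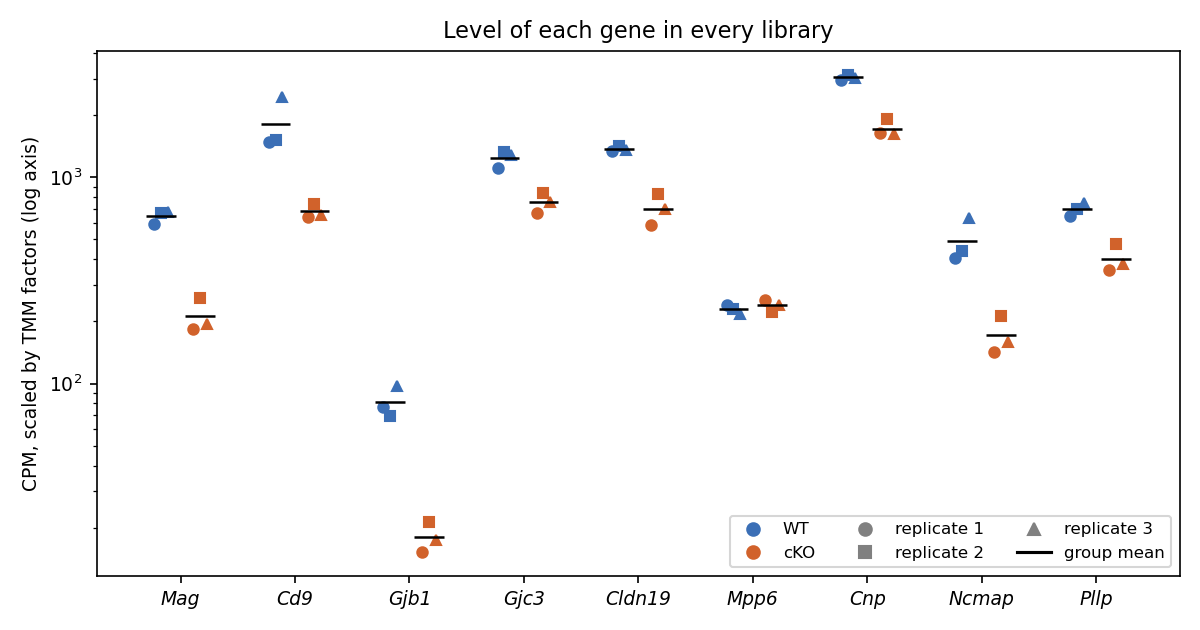
Level of each of the 9 genes in CPM on a log axis, with 1 point per library for the 3 WT and the 3 cKO libraries and a line at each group's mean. The cKO points lie below all WT points for every gene but Mpp6, whose groups overlap.

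Promoter sequence of 4 members is shown because they span the responses seen: the most lowered member (Gjb1), the axon-facing adhesion molecule (Mag), the tight junction protein (Cldn19) and the member that did not pass the test (Mpp6). RefSeq windows from 250 bases before to 50 after each annotated start (GRCm38.p6) were found for all 9 members, 17 windows in all. They were searched on both strands for GGAATG (the core bound by TEAD factors), ACAAAG or ACAATG (SOX factors such as Sox10) and GTGGGCG or GGGGGCG (EGR factors such as Egr2). The EGR strings share their ending but cannot lie on the same bases, and within a window no matches overlapped in the members. The 250 bases before 1 start of each gene follow (for Gjb1 the start nearest the 3′ end of the gene, called inner), 5′ to 3′ on the gene's strand, with matched letters in capitals.
Gjb1, inner start, chrX:101383482-101383731, plus strand: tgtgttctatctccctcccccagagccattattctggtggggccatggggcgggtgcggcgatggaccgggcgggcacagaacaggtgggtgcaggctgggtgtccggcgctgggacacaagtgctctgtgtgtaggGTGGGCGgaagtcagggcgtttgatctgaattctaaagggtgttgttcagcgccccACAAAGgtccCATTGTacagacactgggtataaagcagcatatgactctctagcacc
Mag, chr7:30914864-30915113, minus strand: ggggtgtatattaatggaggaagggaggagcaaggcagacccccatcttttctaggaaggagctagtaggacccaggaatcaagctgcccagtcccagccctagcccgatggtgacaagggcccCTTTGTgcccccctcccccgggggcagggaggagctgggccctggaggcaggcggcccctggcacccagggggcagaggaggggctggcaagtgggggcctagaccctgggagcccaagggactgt
Cldn19, chr4:119255191-119255440, plus strand: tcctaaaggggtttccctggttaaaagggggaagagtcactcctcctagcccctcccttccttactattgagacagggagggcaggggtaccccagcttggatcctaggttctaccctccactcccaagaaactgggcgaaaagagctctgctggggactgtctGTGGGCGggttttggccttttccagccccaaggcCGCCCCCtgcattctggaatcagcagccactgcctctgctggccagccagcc
Mpp6, chr6:50109991-50110240, plus strand: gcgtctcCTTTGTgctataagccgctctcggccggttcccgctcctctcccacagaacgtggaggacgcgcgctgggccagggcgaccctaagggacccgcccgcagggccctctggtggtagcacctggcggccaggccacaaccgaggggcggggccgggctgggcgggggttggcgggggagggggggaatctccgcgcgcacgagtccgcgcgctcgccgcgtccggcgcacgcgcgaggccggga

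The Gjb1 window held an EGR match at -113 and SOX matches at -57 and -47 from the start, and the Mag window a SOX match at -126. Cldn19 had EGR matches at -86 and -52. Mpp6 had a SOX match at -243 in the window shown. Its other window held EGR matches at -55 and -33, but all 250 bases before that start lie in annotated exons of Mpp6. Over the full windows, TEAD letters were in 3 of 9 members (Mag, Gjb1 and Cnp), against 16.6% of all genes. SOX letters were in 4 of 9 (Mag, Gjb1, Cnp and Mpp6; 31.7% of all genes), and EGR letters in 5 of 9 (Gjb1, Cldn19, Cnp, Mpp6 and Cd9; 23.8%). Gjc3, Ncmap and Pllp held none of these letters in the windows searched. By window, TEAD, SOX and EGR letters were in 3, 6 and 6 of the 17, against 14.7%, 28.6% and 21.8% of all windows. The Cldn19 windows overlap and hold the same EGR matches, and overlapping Mag windows hold the same SOX match. The SOX and EGR counts by window therefore take these bases more than once. Members with several annotated starts had more windows to hold a match, and a match is a run of letters, not a measured site. The EGR letters are nearly all G and C. Member windows that held them were 59.3% to 70.7% G and C, against a median of 52.7% over all promoters. The part of base content in these counts was not tested. Within the 150 bases before the start, 1, 2 and 5 members held TEAD, SOX and EGR letters, against 8.8%, 17.6% and 18.1% of all genes.

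Mag (chromosome 7, 30899176 to 30914873, minus strand; mm10 here and below), the sialic acid-binding adhesion molecule of the innermost myelin membrane, fell 3.06-fold. Its level was 596.2, 672.9 and 681.8 CPM in WT 1, WT 2 and WT 3 and 183.1, 259.1 and 195.4 CPM in cKO 1, cKO 2 and cKO 3. The groups lay far apart, with cKO 2 the highest of the cKO libraries. The means went from 650.3 ± 47.1 to 212.5 ± 40.8 CPM (SD, n = 3 per group), which is -1.61 ± 0.14 (SE) on the log2 scale with an edgeR adjusted p of 0.000441. With 8 annotated transcripts on 12 exon blocks, isoforms of Mag were summed in these counts.

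Both gap junction genes fell. Gjb1 (chromosome X, 101376378 to 101385629, plus strand), the connexin that joins the layers of noncompact myelin and is mutated in X-linked Charcot-Marie-Tooth disease, fell the most of the 9. It stood at 76.6, 69.9 and 97.3 CPM in WT 1, WT 2 and WT 3 and 15.3, 21.2 and 17.5 CPM in cKO 1, cKO 2 and cKO 3. Both groups were tight beside the gap between them. The means went from 81.3 ± 14.3 to 17.98 ± 3.00 CPM (edgeR: log2 fold change -2.18 ± 0.16, adjusted p = 0.000204; 4.53-fold). Gjc3 (chromosome 5, 137953461 to 137963098, minus strand), a connexin of the membrane facing the axon and of the incisures, fell the least of the lower members. Its counts came to 1117, 1328 and 1283 CPM in WT 1, WT 2 and WT 3 and 670.6, 843.5 and 759.8 CPM in cKO 1, cKO 2 and cKO 3. The highest cKO library, cKO 2, was still below the lowest WT library, WT 1. The means went from 1243 ± 111.2 to 758.0 ± 86.5 CPM (edgeR: log2 fold change -0.71 ± 0.12, adjusted p = 0.00615; 1.64-fold). Per kilobase of exon, Gjb1 stood at 17.5, 13.4 and 19.3% of the level of Gjc3 in WT 1, WT 2 and WT 3 and at 5.81, 6.41 and 5.88% in cKO 1, cKO 2 and cKO 3. The log2 ratio of Gjb1 to Gjc3 differed by -1.46 between the groups without overlap (p = 0.1 by an exact permutation test, two-sided, which is the lowest value for 3 against 3; adjusted over 11 ratios p = 0.183), a test that cannot pass 0.05 at this size.

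Cldn19 (chromosome 4, 119255414 to 119262438, plus strand), the claudin of the tight junctions along mesaxons, incisures and paranodal loops, fell 1.95-fold. It stood at 1349, 1418 and 1363 CPM in WT 1, WT 2 and WT 3 and 586.3, 826.5 and 700.5 CPM in cKO 1, cKO 2 and cKO 3. The WT libraries were nearly equal while the cKO libraries were spread, with cKO 1 lowest and cKO 2 highest. The means went from 1377 ± 36.5 to 704.4 ± 120.2 CPM (edgeR: log2 fold change -0.97 ± 0.13, adjusted p = 0.00258). Mpp6 (chromosome 6, 50110241 to 50198939, plus strand), a guanylate kinase-like scaffold that anchors proteins at the incisures, had 239.9, 230.1 and 217.5 CPM in WT 1, WT 2 and WT 3 and 255.1, 223.5 and 239.2 CPM in cKO 1, cKO 2 and cKO 3. Its groups overlapped, with means of 229.2 ± 11.2 CPM in WT and 239.3 ± 15.8 CPM in cKO. The log2 fold change was 0.06 ± 0.09 with a 95% interval of -0.14 to 0.26 (edgeR adjusted p = 0.742), an interval that leaves out a fall as large as that of Gjc3.

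Cnp (chromosome 11, 100574904 to 100591729, plus strand), the cyclic nucleotide phosphodiesterase that lines the cytoplasmic channels of myelin, fell 1.77-fold. Its level was 2986, 3154 and 3027 CPM in WT 1, WT 2 and WT 3 and 1647, 1913 and 1618 CPM in cKO 1, cKO 2 and cKO 3. Libraries within each group were close. On average Cnp went from 3056 ± 87.8 to 1726 ± 162.2 CPM (edgeR: log2 fold change -0.82 ± 0.11, adjusted p = 0.00214). Its exons share 154 bases with Dnajc7 on the opposite strand, and Dnajc7 itself stood at 0.08 ± 0.08 on the log2 scale (edgeR adjusted p = 0.597). Without a stated strand setting, reads of such overlaps cannot be assigned, and the same holds for uncounted antisense genes that share 90 bases with Cldn19, 1128 with Pllp and 218 with Cd9.

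The small membrane proteins also fell. Ncmap (chromosome 4, 135369576 to 135398227, minus strand), a membrane glycoprotein named for noncompact myelin, stood at 404.8, 439.0 and 638.9 CPM in WT 1, WT 2 and WT 3 and 142.3, 212.8 and 159.0 CPM in cKO 1, cKO 2 and cKO 3. WT 3 was the highest library by a wide margin. The means went from 494.2 ± 126.4 to 171.4 ± 36.9 CPM (edgeR: log2 fold change -1.53 ± 0.20, adjusted p = 0.00242; 2.88-fold). Without WT 3 the log2 fold change was -1.33. Pllp (chromosome 8, 94674894 to 94696278, minus strand), plasmolipin, a MARVEL-domain protein of myelin membrane, stood at 650.5, 704.1 and 749.8 CPM in WT 1, WT 2 and WT 3 and 354.5, 474.1 and 379.4 CPM in cKO 1, cKO 2 and cKO 3. Its groups did not overlap. Mean Pllp went from 701.5 ± 49.7 to 402.7 ± 63.1 CPM (edgeR: log2 fold change -0.80 ± 0.12, adjusted p = 0.00482; 1.74-fold). Cd9 (chromosome 6, 125460266 to 125494791, minus strand), a tetraspanin that organises adhesion proteins in the membrane, had 1479.7, 1521 and 2454 CPM in WT 1, WT 2 and WT 3 and 645.4, 746.7 and 658.8 CPM in cKO 1, cKO 2 and cKO 3. WT 3 stood above WT 1 and WT 2, while the cKO libraries were close together. The group mean of Cd9 went from 1818 ± 550.9 to 683.6 ± 55.01 CPM (edgeR: log2 fold change -1.41 ± 0.19, adjusted p = 0.00280; 2.66-fold). Without WT 3 the log2 fold change was -1.16 and the call held.

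**Figure D2:**
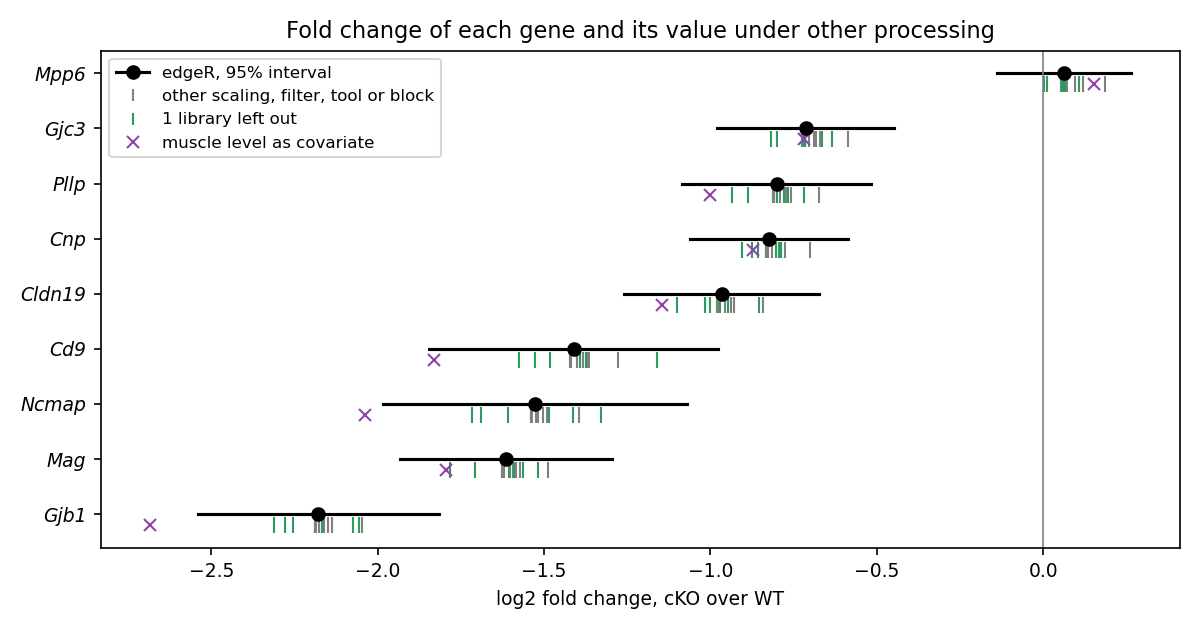
Log2 fold change of each of the 9 genes, cKO over WT, with its 95% interval (edgeR, 3 libraries per group) as a line, and below each the values under other scaling, filters, tools or the replicate block (grey), with 1 library left out (green) and with muscle level as a further term (purple cross). The values run from -2.18 for Gjb1 to 0.06 for Mpp6, and Mpp6 is the member whose interval reaches 0.

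Levels of different genes were compared per kilobase of exon (CPM per kb). In WT nerves Cd9 (889.5 ± 269.5, SD, n = 3) and Cnp (839.7 ± 24.1) led and overlapped each other. Pllp (336.8 ± 23.9) and Cldn19 (322.9 ± 8.56) came next and overlapped, followed by Gjc3 (285.3 ± 25.5), which overlapped Ncmap (221.9 ± 56.8). Mag (159.7 ± 11.6), Gjb1 (47.6 ± 8.36) and Mpp6 (36.6 ± 1.79) stood below them, each apart from its neighbour. In cKO nerves the order was Cnp (474.3 ± 44.6), Cd9 (334.4 ± 26.9), Pllp (193.3 ± 30.3), Gjc3 (174.0 ± 19.8), Cldn19 (165.2 ± 28.2), Ncmap (76.9 ± 16.6), Mag (52.2 ± 10.02), Mpp6 (38.3 ± 2.53) and Gjb1 (10.5 ± 1.75). There Pllp overlapped Gjc3 and Gjc3 overlapped Cldn19, and Gjb1 was last, below Mpp6 in all 3 libraries, where in WT nerves it stood above Mpp6 in all 3. Dividing by the longest transcript instead of all exons exchanged Mag with Ncmap in both orders and Gjb1 with Mpp6 in the WT order, so the order of these neighbours depends on the length used.

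**Figure D3:**
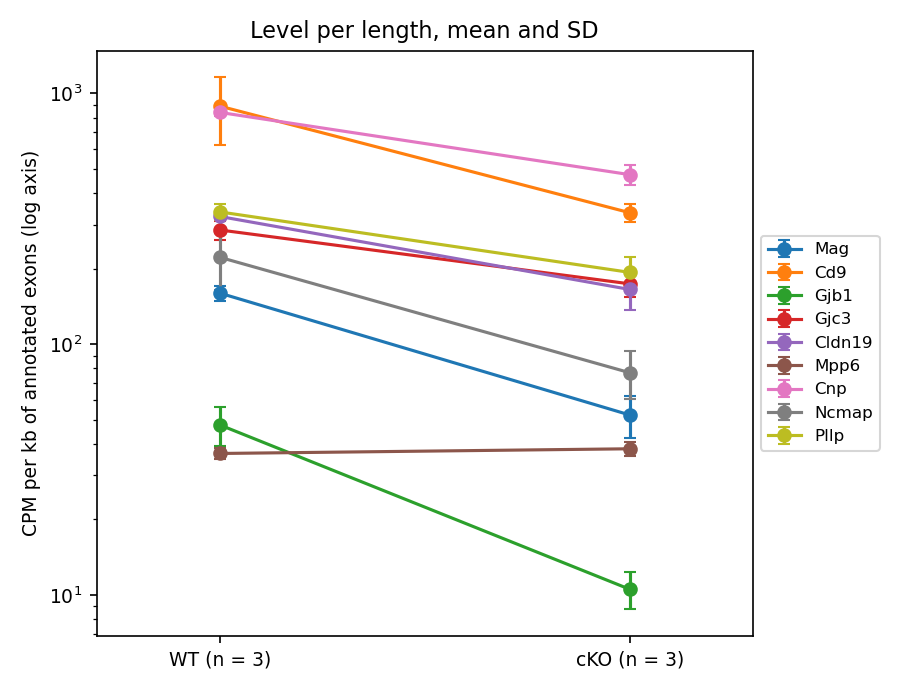
Level per kilobase of exon (CPM per kb, log axis) of the 9 genes, as the mean with SD of 3 WT and 3 cKO libraries, with a line joining each gene's means. By this length Gjb1 passes from above Mpp6 in WT to below it in cKO, while with the longest transcript it is below Mpp6 in both groups.

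In cKO 2, 8 of 9 members were above the cKO mean of log2 CPM, all but Mpp6, by 0.13 for Cd9 to 0.33 for Ncmap, against 54.5% of all genes. In cKO 1, 1 of 9 was above it, Mpp6 again standing apart, against 45.5% of all genes. In cKO 3 it was 3 of 9 (52.7% of all genes). Among the WT libraries, WT 1 had 1 of 9 above the mean and WT 2 and WT 3 had 6 each, against 50.96%, 50.6% and 50.4% of all genes. In WT 2 Gjb1, Ncmap and Cd9 were the members below the mean. WT 3 stood out for Cd9 (0.47), Ncmap (0.40) and Gjb1 (0.27), and was also high for Pmp2 (0.40) and Pmp22 (0.33) of compact myelin. The within-group SD of log2 CPM ran from 0.0841 for Mpp6 to 0.327 for Ncmap. These deviations come from 3 libraries a group and have no test.

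**Figure D4:**
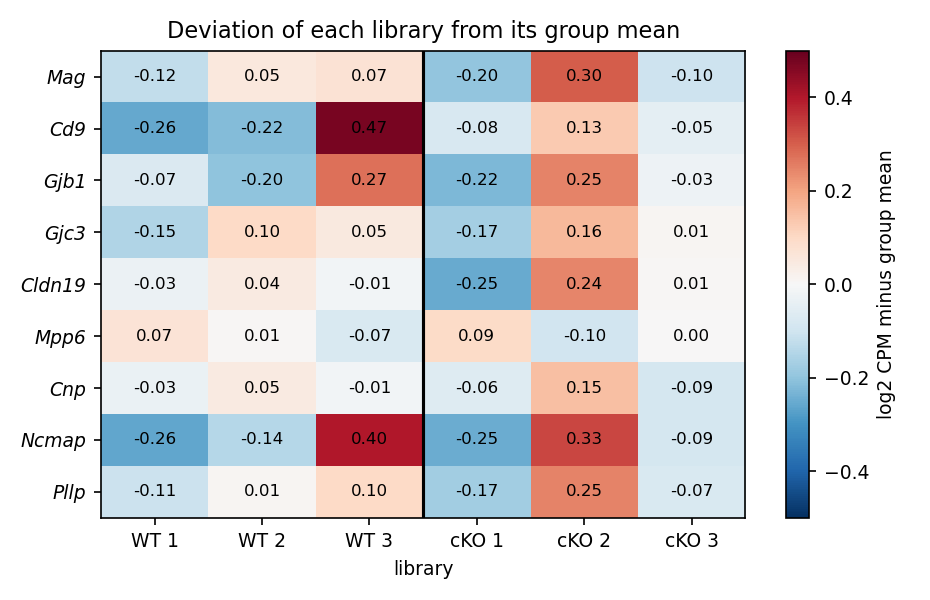
Deviation of each library from its group's mean log2 CPM for the 9 genes, 1 column per library. In cKO 2 all members but Mpp6 are above the mean, and in WT 3 Cd9, Ncmap and Gjb1 are the highest.

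In the compact myelin list, 5 of 6 genes were lower and 0 higher, against 6.17% and 4.77% of all tested genes. The median log2 fold change of the list was -1.86. Pmp2, a fatty acid carrier of myelin, had -2.38 ± 0.23, Mbp, which holds the cytoplasmic faces together, -2.02 ± 0.21, Pmp22 -1.94 ± 0.20 and Mal, a lipid raft protein, -1.59 ± 0.14. Gjb1 and Mag lay among these 4 in size, and Ncmap, Cd9, Cldn19, Cnp, Pllp and Gjc3 lay between them and 0. The difference between the lists was not tested. Of 6 genes of the Schwann cell lineage that are not myelin proteins (Sox10, Erbb3, Cdh19, S100b, Dhh and Adgrg6), 0 were called in either direction, whether by edgeR, by DESeq2 or by limma-voom, and 0 reached an unadjusted edgeR p under 0.05 with all 6 libraries. Without WT 3, S100b was called higher (log2 fold change of S100b 0.55, edgeR adjusted p = 0.00597). Over all tested genes edgeR called 10.9% in either direction, so 0 of 6 does not set the lineage genes apart. The summed level of the lineage genes was 1262 to 1396 CPM in WT and 1233 to 1415 CPM in cKO. Set against the mean of these lineage genes within each library, the 8 lower members did not overlap between the groups, as held for 8.95% of all genes on that scale, with differences from -0.68 (Gjc3) to -2.14 (Gjb1) on the log2 scale, and Mpp6 did (0.0961). With library sizes scaled to the lineage genes, 7 members were called lower and Gjc3 was not (edgeR adjusted p = 0.0553), against 2.98% of all genes lower in that fit. With Erbb3, the most variable of them, left out, 8 were, against 4.53%.

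Markers of other cell types moved with the groups. The summed level of 15 skeletal muscle genes was 411.8 to 1582 CPM in WT and 4107 to 9209.7 CPM in cKO. Acta1 was the highest of them, and cKO 2 held the most muscle RNA. Of the 15, 13 were called higher in cKO, against 4.77% of all tested genes. With the muscle level as a covariate, 3 members were called lower: Mag, Gjb1 and Ncmap (edgeR adjusted p = 0.0301, 0.00999 and 0.0403), against 0.811% of all genes lower in that fit. All of the 8 kept their sign in that fit, the median log2 fold change of the 9 was -1.14, and their median SE went from 0.129 to 0.245. Every cKO library held more muscle RNA than every WT library. The sums of mast cell genes, of which Cma1 had the highest mean (77.9 to 100.4 CPM in WT, 113.9 to 229.6 in cKO) and lymphocyte genes, of which Cd79a had the highest mean over the 6 libraries and Cd4 the highest level in WT (2.10 to 3.15 and 7.91 to 15.1) were also higher in cKO without overlap, and the sum of 5 nonmyelinating Schwann cell genes was lower (451.3 to 541.6 and 364.7 to 417.0 CPM), with Scn7a and Ngfr called lower. Ncam1, which had the highest mean of the 5, stood at 149.8, 170.4 and 98.2 CPM in the WT and 197.2, 183.9 and 191.6 CPM in the cKO libraries, above WT in every cKO library, and was not called (edgeR adjusted p = 0.145). The sum of 6 oligodendrocyte genes, mostly Mobp in WT, was 1.38 to 3.53 CPM in WT and 0.0603 to 0.0779 CPM in cKO, without overlap. Their part in the result was not tested. Fat, fibroblast, perineurial, endothelial, pericyte, macrophage, neuron and blood sums overlapped between the groups. For all of these but neuron and blood, the overlap came from WT 3 alone, and WT 1 and WT 2 lay below every cKO library. The fat sum, for example, was 94.9, 91.7 and 469.2 CPM in WT 1, WT 2 and WT 3 and 314.2 to 465.0 CPM in cKO. The part of these cell types was not tested either.

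Relatives and partners of the 9 genes were taken as 7 lists, 136 of whose 163 genes were tested. Of these 136, 25 were lower (18.4%) and 11 higher (8.09%), against 6.17% and 4.77% of all genes. When 1 library was left out, 12 of the lower and 4 of the higher calls held in all 6 fits. With the muscle level added as a term, 4 were called lower and 0 higher. The median log2 fold change of the 136 was 0.07, close to the 0.02 of all genes.

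**Figure D5:**
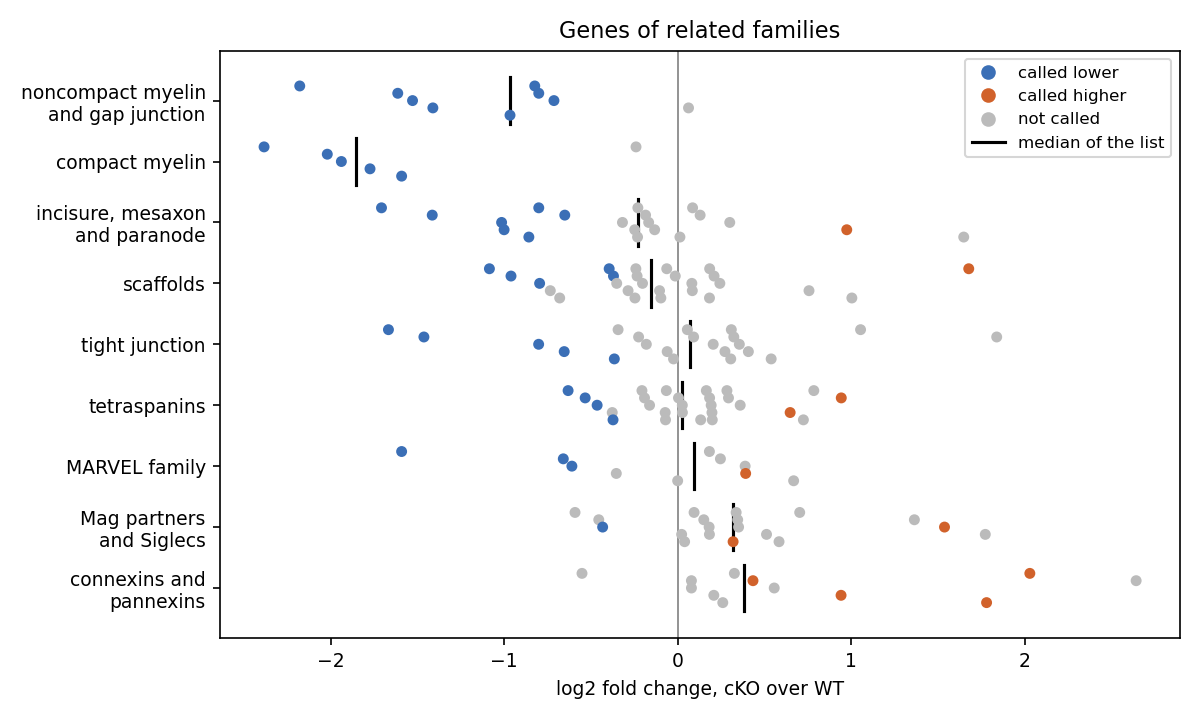
Log2 fold change of the 9 genes, of compact myelin genes and of the tested genes of the 7 related lists, 1 point per gene, with called genes marked and a line at each list's median. The 9 genes and compact myelin lie mostly below 0, while the medians of the 7 lists lie between -0.23 and 0.38.

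The calls among the other connexins and pannexins were upward. Of 12 tested, 4 were higher (33.3%), against 4.77% of all tested genes, with a median of 0.38. By edgeR, DESeq2 and limma-voom alike 0 were lower, and 0 reached an unadjusted edgeR p under 0.05 in that direction. Over all tested genes 6.17% were lower, so 0 of 12 does not set these genes apart. Gjb6, a connexin of astrocytes and epithelia, rose from 0.504 ± 0.229 to 2.09 ± 0.166 CPM (2.03 ± 0.40), a call lost without cKO 3 (edgeR adjusted p = 0.0588). Gjb2 (0.94 ± 0.21) lost its call without cKO 1, cKO 3, WT 1 or WT 2 (edgeR adjusted p = 0.0560 to 0.108). Panx1 (0.43 ± 0.10), a large-pore channel, lost it without cKO 1, cKO 2, cKO 3, WT 1 or WT 2 (edgeR adjusted p = 0.0629 to 0.124). Gja3 (1.78 ± 0.44), known from the lens, lost it without cKO 1, cKO 2, cKO 3, WT 1 or WT 2 (edgeR adjusted p = 0.0547 to 0.144). Its level was low in both groups, 0.298 ± 0.114 CPM in WT and 1.03 ± 0.221 CPM in cKO. It was also not called with the filter of 50 counts in 3 libraries or with the replicate block. Gja1, the widespread connexin of fibroblasts and perineurium, had 0.26 ± 0.15 and Gjc1 0.08 ± 0.09, and neither passed.

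Among 22 other claudins and tight junction genes, 5 were lower (22.7%) and 0 higher (median 0.07), against 6.17% and 4.77% of all tested genes. Cldn12 fell from 65.3 ± 8.26 to 23.7 ± 1.62 CPM (-1.46 ± 0.11) and Marveld3, a tight junction MARVEL protein, had -1.67 ± 0.27, and both calls held whichever library was left out. Cldn11 (-0.65 ± 0.15), the claudin of central myelin, lost its call without cKO 1, cKO 3 or WT 2 (edgeR adjusted p = 0.0680 to 0.0923), and Cldnd1 (-0.37 ± 0.09) without cKO 1, cKO 2, cKO 3 or WT 2 (edgeR adjusted p = 0.0585 to 0.117). Among 26 scaffolds of the family of Mpp6 and of cell polarity, 5 were lower (19.2%) and 1 higher (3.85%), with a median of -0.15. Magi2 (-0.96 ± 0.14) and Mpdz (-0.80 ± 0.13), multi-PDZ scaffolds, fell, and Lin7a, a partner of Mpp proteins, rose from 1.81 ± 0.0667 to 5.81 ± 0.783 CPM (1.68 ± 0.21), in all 6 of those fits. Pard6b (-1.09 ± 0.22), a polarity adaptor, was not called without cKO 3 (edgeR adjusted p = 0.0710). Lin7c (-0.37 ± 0.08) was not called without cKO 2, cKO 3 or WT 2 (edgeR adjusted p = 0.0725 to 0.0777). Mpp5 (-0.40 ± 0.10), a polarity scaffold of myelinating Schwann cells, was not called without cKO 1, cKO 2, cKO 3 or WT 2 (edgeR adjusted p = 0.0604 to 0.145).

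Of 20 adhesion and membrane skeleton genes of incisures, mesaxon and paranode, 7 were lower (35%) and 1 higher (5%), with a median of -0.23. Over all tested genes the shares were 6.17% and 4.77%. Cntn1, a paranodal adhesion molecule of the axon, had -1.41 ± 0.13, Cadm4, the Schwann cell nectin-like protein that contacts the axon, -0.86 ± 0.10, the membrane skeleton protein Epb4.1l2 -1.0007 ± 0.12 and the ankyrin Ank3 -0.80 ± 0.11, while Cadm2 rose (0.97 ± 0.13); these 5 held in all 6 fits. Nfasc (-1.71 ± 0.32), which encodes the glial and axonal neurofascins, was lost without cKO 3 (edgeR adjusted p = 0.0503), Cadm3 (-1.02 ± 0.21) without cKO 3 (edgeR adjusted p = 0.0563), and Cdh1 (-0.65 ± 0.15), the cadherin of incisures, without cKO 1, cKO 3 or WT 2 (edgeR adjusted p = 0.0520 to 0.0899).

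Of 27 other tetraspanins and partners of Cd9, 4 were lower (14.8%) and 2 higher (7.41%), with a median of 0.03. Over all tested genes the shares were 6.17% and 4.77%. Tspan13 (-0.63 ± 0.09) fell and Tspan7 (0.65 ± 0.09) rose in all 6 fits. With lineage factors 0 of the 4 were called lower, Tspan13 among those lost (edgeR adjusted p = 0.114). Tspan17 (-0.46 ± 0.09) was lost without cKO 3 or WT 2 (edgeR adjusted p = 0.0577 to 0.0829) and Tspan3 (-0.53 ± 0.12) without cKO 2, cKO 3 or WT 2 (edgeR adjusted p = 0.0728 to 0.120). Cd82 (-0.37 ± 0.10) was lost without cKO 1, cKO 2, cKO 3, WT 1, WT 2 or WT 3 (edgeR adjusted p = 0.0561 to 0.189). Cd37 (0.94 ± 0.24), a tetraspanin of leukocytes, was lost without cKO 1, cKO 2, cKO 3, WT 1 or WT 2 (edgeR adjusted p = 0.0632 to 0.134). In the MARVEL family of Pllp, 3 of 10 were lower and 1 higher (median 0.09): Mal, named above, and Cmtm6 (-0.61 ± 0.10) in all 6 fits, Cmtm5 (-0.66 ± 0.15) except without cKO 2, cKO 3 or WT 2 (edgeR adjusted p = 0.0569 to 0.108), and Cmtm7 higher (0.39 ± 0.09) except without cKO 1, cKO 2, cKO 3, WT 1, WT 2 or WT 3 (edgeR adjusted p = 0.0572 to 0.113). With lineage factors the log2 fold change of Cmtm6 was no longer called (edgeR adjusted p = 0.0507). Of 19 receptors and ligand enzymes of Mag and other Siglecs, 1 was lower (5.26%) and 2 higher (10.5%), with a median of 0.32. The share lower is near the 6.17% of all tested genes, and the share higher rests on 2 genes. Siglecf, a Siglec of eosinophils, rose from 2.46 ± 0.759 to 7.14 ± 1.03 CPM (1.54 ± 0.26) in all 6 fits. St3gal3 (-0.43 ± 0.11), a sialyltransferase, lost its call without cKO 1, cKO 3, WT 1 or WT 2 (edgeR adjusted p = 0.0520 to 0.136). Fyn (0.32 ± 0.09), a kinase that acts downstream of Mag, lost its call without cKO 1, cKO 2, cKO 3, WT 1, WT 2 or WT 3 (edgeR adjusted p = 0.0624 to 0.194). Cd22, a Siglec of B cells, had 1.36 ± 0.45 and did not pass (edgeR adjusted p = 0.0943).

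The 5 genes whose centred log2 CPM over the 6 libraries lay closest to the median profile of the 9 members, out of 10262 candidates, were Emid1, Fasn, Pcyt2, Ptpdc1 and Mras. Their Euclidean distances were 0.107, 0.117, 0.121, 0.124 and 0.158, against a median of 1.28 over the candidates. The members themselves lay from 0.0794 (Cldn19) to 1.51 (Gjb1) from that profile, with Mpp6 at 1.36. The 5 genes are thus like the median profile, not like every member. Fasn makes fatty acids and Pcyt2 makes a precursor of phosphatidylethanolamine. Emid1 went from 878.6 ± 45.1 to 470.6 ± 81.4 CPM and Fasn from 427.3 ± 22.4 to 226.2 ± 35.1 CPM. The log2 fold changes of the 5 were -0.90, -0.92, -0.97, -0.90 and -1.01, which the choice of these genes by their likeness fixes.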

How the data were processed

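Raw read counts per gene symbol were deposited for 3 cKO and 3 WT libraries of mouse sciatic nerve, 1 file per sample, with no normalization in the files. Per the submitters' processing notes, TopHat2 2.0.13, HTSeq and the build mm10 were used; the sources used here do not give the annotation or strand setting. Closing lines without a gene (no feature 12.1% to 14.3%, ambiguous 1.64% to 2.82% of counts) were left out of library sizes and tests.

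From the counts, edgeR 4.0.16 in R 4.3.3 was run with filterByExpr (minimum count 10), TMM factors and the quasi-likelihood F test on all 6 libraries with group as the only term; SE is the log2 fold change over the square root of F, and a gene was called at a Benjamini-Hochberg adjusted p under 0.05 over 14789 genes. Levels per length used the union of exons of GENCODE M21 (GRCm38), which matched 23334 of 24421 symbols (95.5%) and 9 of 9 members. Promoters came from RefSeq (GRCm38.p6). The members and the gene lists were chosen with earlier results of these data known. Named were all members, called genes and up to 4 of each related list in order of p, compact myelin genes, and the 5 genes of mean log2 CPM of at least 3 most like the members' median profile. Genes of cell types, Yap1, Wwtr1, Xist, Ddx3y and Dnajc7 were named as checks. Some genes that the rule gives are not reported here.

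Libraries of a group differed beyond counting noise (chi-square over its degrees of freedom, lowest value 12.9), so none was treated as a copy. Simulated counts of this comparison held 14644 genes. Of these, 22 of 67 genes changed by log2 0.5, 62 of 67 changed by 1 and 66 of 66 changed by 2 were called. Of unchanged genes, 10 of 14444 were called. The changed genes were drawn only above a cut on mean level, and the counts from dispersions fitted to these libraries. The rates may not hold for genes at low levels. Alternatives were other scaling factors, other filters, DESeq2 1.42.0, limma-voom (limma 3.58.1), a replicate block, the muscle level as a covariate, and leaving out each library.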

Additional observations from a re-analysis of the deposited data

How the results depend on the processing

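Of the 9 members, 8 were called lower and 0 higher in each of the 6 fits that left out 1 library, with DESeq2's or upper-quartile factors, total counts, no filter, a filter of 50 counts in 3 libraries, DESeq2, limma-voom, lineage factors without Erbb3 (an alternative chosen after seeing the data) and the replicate block. Exceptions were the lineage factors with Erbb3 (7 lower) and the muscle covariate (3 lower); the cause was not tested. Mpp6 was called in none of these fits, with log2 fold changes from 0.00122 to 0.19. Genes of the 7 related lists called lower, 25 in all, went to 13 with lineage factors, 4 with the muscle covariate and 12 (without cKO 3) to 26 (without WT 3) when a library was left out. The 11 called higher went to 19 with total counts, 7 with lineage factors, 6 with the replicate block, 0 with the muscle covariate and 4 to 17 when a library was left out. Replicate numbers gave no sign of a pairing. Same-numbered libraries had correlations of -0.21, -0.12 and 0.072 in their deviations, and cKO 1 correlated best with WT 2. Deviations from a mean of 3 libraries are tied to each other, so these values cannot exclude a pairing. The replicate block kept 8 members lower. Lineage genes not called with all 6 libraries changed sign. With the muscle covariate, the log2 fold change of Sox10 went to 0.0138, the log2 fold change of Erbb3 to -0.83 and the log2 fold change of S100b to -0.11. With 1 library left out, Erbb3 ran from -0.19 to 0.41, with log2 fold changes below 0 without cKO 2, cKO 3, WT 2 or WT 3, and the log2 fold change of Dhh from -0.038 to 0.060, below 0 without cKO 2 or WT 3. At this depth 27 genes of the 7 lists were too low to test, and intervals cover the spread of 3 libraries per group.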
